A study of Homo sapiens with 12 samples.

Results

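sgRAC1 clone 3 is 1 of 3 RAC1 knockout clones of DU145, a cell line grown from a human prostate carcinoma. It was taken as the 2 libraries labelled with that clone, of 12 libraries in all, and set against the 6 libraries of the RAC1-positive lines. Clone 3 and clone 2 were both made with the guide sgRAC1_2, and clone 1 with the guide sgRAC1_1. In each case complexes of Cas9 protein and guide RNA were transfected, cells were plated singly, and the clones that grew were expanded. The RAC1-positive lines were 2 clones that had been given a guide without a target (sgNTC clones 1 and 2) and the parental DU145 line. All lines grew in RPMI medium with 10% serum and had 2 biological replicates, and the replicate number is also the batch in the labels. Clone 3 is 1 clone, so loss of RAC1 and any other difference of that clone cannot be told apart here, and the error behind each p-value is that of duplicate libraries, not of clones.

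RAC1 is a small GTPase that cycles between a GDP-bound and a GTP-bound state. Exchange factors such as VAV2 load it with GTP, and in that state it drives actin-based protrusion through the WAVE and Arp2/3 complexes and takes part in junction assembly and oxidant production. Interferons act through receptors that signal through STAT proteins and IRF9, and the complex that forms binds a short promoter element and switches on genes for antiviral proteins and for antigen presentation.

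Values are in TPM, read counts divided by transcript length and scaled to the same total in every library. The epithelial markers EPCAM, KRT8, KRT18, CDH1, KRT19 and KRT7 summed to 713 to 846 TPM in clone 3 and to 325 to 866 TPM in the RAC1-positive libraries. KLK3 and TMPRSS2, which mark luminal prostate epithelium, were listed at 0 in all 12 libraries, as were the leukocyte genes PTPRC and CD3E. The TPM steps of low genes gave the number of reads behind them, 3893534 and 5440778 reads assigned to genes in clone 3. One control, sgNTC clone 2 replicate 1, stood apart with 539110 reads and 13608 genes above 0, where the other 11 libraries had 3893534 to 10575042 reads and 20470 to 25156 genes. In that library 1 read on a transcript of 1 kb was worth 5.11 TPM, against 0.613 and 0.479 TPM in clone 3, so low values there carry little weight.

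RAC1 (chromosome 7, 6374523 to 6403977, GRCh38) had 39.6 and 40.3 TPM in clone 3. The RAC1-positive libraries lay between 149 and 202 TPM with a median of 170 TPM. The difference of clone 3 from the mean of the 3 RAC1-positive lines was -2.07 on the log2(TPM + 1) scale used for the main tests (SE 0.16, adjusted p = 0.00101, limma with Benjamini-Hochberg adjustment over all genes). Both clone 3 libraries lay far below all 6 RAC1-positive libraries, and the difference was -2.21 in batch 1 and -1.93 in batch 2. Clones 1 and 2, which held 36.5 to 59.2 TPM, differed from the same controls by -2.01 and -1.58. In bulk RNA a lower level in each cell and fewer cells with the transcript cannot be told apart, and the values do not say which part of the transcript the remaining reads came from.

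The relatives of RAC1 were near their control levels, apart from RAC2. RAC2, the Rac protein of blood cells, had 8.24 and 8.52 TPM in clone 3, against 2.02, 3.42 and 4.33 TPM as the lowest, median and highest RAC1-positive library. It was higher by 1.09 (SE 0.20, limma adjusted p = 0.0454), but with the batch as a block the adjusted p was 0.0567. RAC3 was below the level needed for a test, with 0.402 and 0.942 TPM, and VAV3 was listed at 0 in all 12 libraries. RHOG, CDC42, VAV2 and EGFR differed by -0.06, -0.04, -0.06 and -0.17 with adjusted p of 0.914, 0.947, 0.936 and 0.749, and both clone 3 libraries lay within the control range for the first 3. EGFR had 12.002 and 14.5 TPM in clone 3 against 12.2 to 18.0 TPM.

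Of 56832 genes in the table, 17740 reached a mean of 1 TPM in clone 3 or in the RAC1-positive libraries and were tested. A gene can enter the test through clone 3 alone, so counts over a list below are over the members tested. At an adjusted p under 0.05, 166 were higher in clone 3 (0.936%) and 28 were lower (0.158%), and 2306 had an unadjusted p under 0.05, 8.78% of all genes in the higher and 4.22% in the lower direction. The median difference over all genes was 0.05 and the median absolute difference 0.29. Both clone 3 libraries lay above all 6 RAC1-positive libraries for 1836 genes (10.3%) and below all of them for 825 (4.65%). Among the called genes that held for all 166 higher ones and 27 of the 28 lower ones.

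The number of calls depended on the libraries. It was 83 higher and 12 lower without Parental replicate 1, 66 and 8 without Parental replicate 2, 73 and 7 without sgNTC clone 1 replicate 1, and 78 and 10 without sgNTC clone 1 replicate 2. Without sgNTC clone 2 replicate 2 it was 564 and 138, without sgNTC clone 2 replicate 1 it was 225 and 52, and with clone 3 replicate 1 or 2 left out it was 210 and 11 or 387 and 35. With 1 mean per line as the unit, where 1 line stood against 3, limma called no gene, although 1888 had an unadjusted p under 0.05. The cause of that loss was not tested. Of 74 called genes named by rule or list, 30 kept an adjusted p under 0.05 whichever of the 8 libraries was left out. A gene given below with its values kept its call in the same way unless another adjusted p stands beside it.

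**Figure D1:**
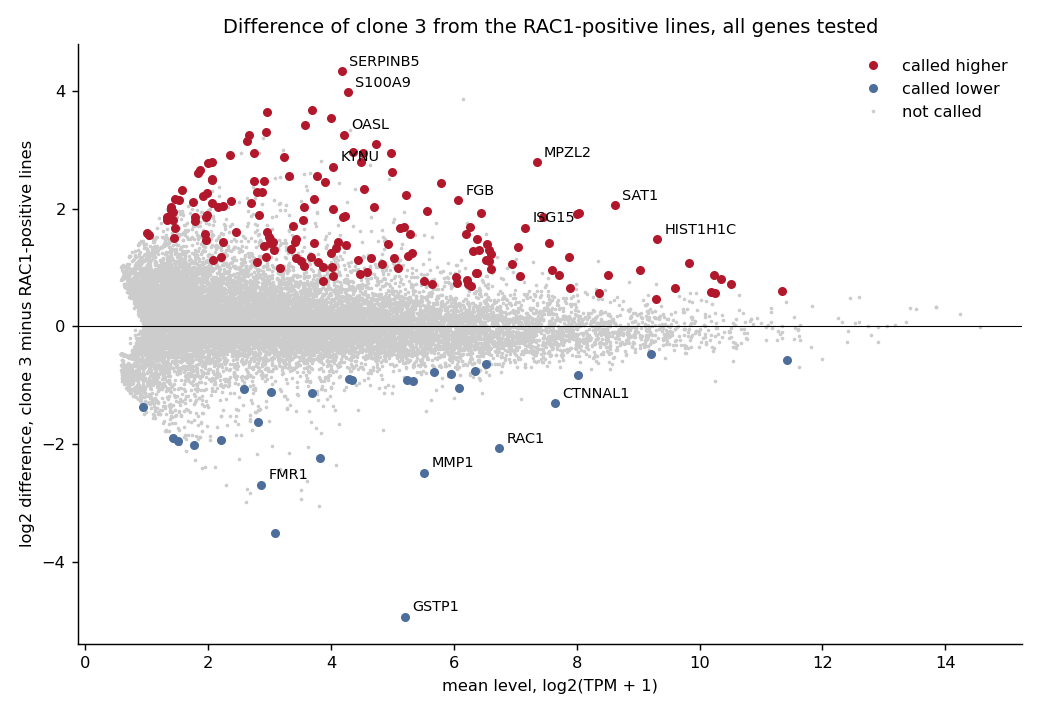
Each point is 1 of the 17740 genes tested, with its mean level on the x axis (log2(TPM + 1)) and the difference of clone 3 from the RAC1-positive lines on the y axis (log2). Red points are the 166 genes called higher and blue points the 28 called lower. The called genes spread over the whole range of levels, and GSTP1 has the lowest difference of all.

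The scatter of differences against level shows SERPINB5 at the top and GSTP1 at the bottom. SERPINB5 (chromosome 18, 63476761 to 63505085), which encodes maspin, a serpin of epithelial cells, had 30.5 and 36.0 TPM in clone 3 and 0.132, 0.563 and 2.15 TPM as the lowest, median and highest RAC1-positive values. Its difference was 4.33 (SE 0.33, limma adjusted p = 0.00101). Clone 2, made with the same guide, was also high with 18.9 and 18.3 TPM, while clone 1 had 1.27 and 2.28 TPM, next to the controls.

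S100A9, a subunit of the calcium-binding protein calprotectin, had 42.5 and 26.6 TPM in clone 3 and 0 to 8.86 TPM in the RAC1-positive libraries, and rose by 3.97 (SE 0.42, adjusted p = 0.00411). The value of 8.86 TPM was 1 read in sgNTC clone 2 replicate 1, where low values carry little weight. SDR16C5, a retinol dehydrogenase, had 13.5 and 12.3 TPM against at most 1.97 TPM (3.30, adjusted p = 0.000922). GPX2, a glutathione peroxidase of epithelia, had 9.41 and 11.5 TPM against at most 0.862 TPM (3.25, adjusted p = 0.00632). In all of these the means of clones 1 and 2 lay between those of clone 3 and the controls, with differences of 2.63 and 2.29 for S100A9, 1.73 and 2.57 for SDR16C5 and 2.34 and 1.62 for GPX2.

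DEFB1, an antimicrobial peptide of epithelia, had 16.7 and 10.0 TPM in clone 3, from 13 and 10 reads, against at most 0.900 TPM in the controls (3.65, adjusted p = 0.00502). The tetraspanins TSPAN7 and TSPAN1 had 23.5 and 22.3 TPM and 35.5 and 33.4 TPM, against at most 1.59 and 7.77 TPM in the RAC1-positive libraries. TSPAN7 rose by 3.67 (adjusted p = 0.000552) and TSPAN1 by 2.96 (adjusted p = 0.0216, but 0.152 without clone 3 replicate 1). KYNU, an enzyme of tryptophan breakdown, SAT1, which acetylates polyamines, and the secreted protease inhibitor SERPINA1 rose by 2.71, 2.06 and 2.23 with adjusted p of 0.000552, 0.000552 and 0.00164. For KYNU the control lines differed widely among themselves. Parental had 11.8 and 10.2 TPM and sgNTC clone 2 had 0.872 and 0.919 TPM, with sgNTC clone 1 between. Clone 3 had 25.1 and 27.1 TPM, so its rise over Parental was smaller than the 2.71 over the mean of the lines. The p-value for KYNU does not take in that spread between lines. DEFB1 had 6.68 and 17.9 TPM in clone 1 and 2.40 and 3.81 TPM in clone 2, and TSPAN7 had 14.2 to 18.0 TPM in clones 1 and 2. Their differences from the controls were 3.44 and 1.86 for DEFB1 and 3.13 and 3.24 for TSPAN7 in clones 1 and 2. Clones 1 and 2 also had KYNU, SAT1 and SERPINA1 above the controls, by 2.96 and 2.39, by 1.52 and 1.51 and by 1.59 and 1.56. All 3 clones were set against the same RAC1-positive libraries, so these values are not independent of each other.

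The interferon stimulated genes made up the group with the highest median. Of 39 on the list 27 were tested, and 12 were called higher and none lower by limma, against 0.936% of all genes called higher. At an unadjusted p under 0.05 there were 22, all higher, against 8.78% of all genes in that direction. The median difference of the 27 was 1.52 in clone 3, against 0.05 over all genes, and 26 of the 27 were positive. Clones 1 and 2 had medians of 0.64 and 0.52 against the same controls, and clone 3 lay above clones 1 and 2 by a median of 0.90. Both clone 3 libraries exceeded all 10 other libraries for 17 of the 27 genes, against 801 of all 17740 genes tested. The median was 1.80 in batch 1 and 1.42 in batch 2. Leukocyte markers summed to 2.29 to 4.23 TPM in clone 3 and 0 to 1.08 TPM in the RAC1-positive libraries, in clone 3 all of it CD14, while PTPRC and CD3E were at 0.

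**Figure D2:**
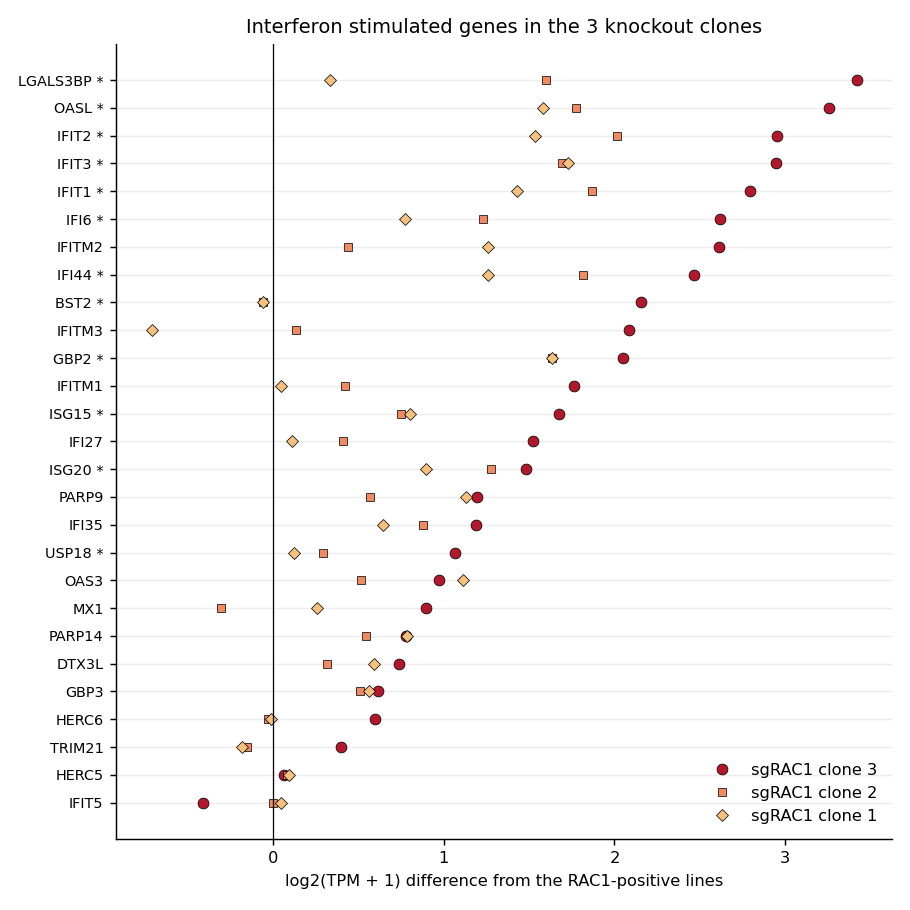
Difference from the RAC1-positive lines (x axis, log2(TPM + 1)) of the 27 interferon stimulated genes tested, with a symbol for each knockout clone and an asterisk for the 12 called in clone 3. Clone 3 lies right of both other clones for LGALS3BP, OASL, the IFIT genes 1 to 3 and IFI6, and left of them for IFIT5.

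The plot of the 27 genes shows each one's difference. OASL (chromosome 12, 121019111 to 121039242), which enhances RNA sensing, had 33.7 and 30.9 TPM in clone 3 and 1.45, 2.14 and 4.90 TPM as the lowest, median and highest control. It rose by 3.26 (SE 0.30, limma adjusted p = 0.00239). Clones 1 and 2 held 8.17 to 11.6 TPM, so the 3 groups of libraries did not overlap.

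IFIT1, IFIT2 and IFIT3, which bind viral RNA and hold up its translation, had like values. IFIT1 had 40.7 and 35.6 TPM in clone 3, 11.8 to 19.6 TPM in clones 1 and 2 and 3.13 to 7.76 TPM in the RAC1-positive libraries (2.79, SE 0.25, adjusted p = 0.00205). IFIT2 had 34.1 and 44.5 TPM in clone 3 against 2.49 to 6.62 TPM in the controls (2.95, adjusted p = 0.00200), and IFIT3 had 44.4 and 65.0 TPM against 3.87 to 10.7 TPM (2.95, adjusted p = 0.00187). IFIT5, of the same family, had 15.4 and 20.8 TPM within the control range of 14.1 to 40.8 TPM, with a difference of -0.41 (adjusted p = 0.564).

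ISG15, a ubiquitin-like modifier, had 211 and 220 TPM in clone 3, 101 to 126 TPM in clones 1 and 2 and 48.9 to 90.5 TPM in the controls, and rose by 1.68 (SE 0.22, adjusted p = 0.0123, and 0.0813 without clone 3 replicate 1). IFI6, a membrane protein that limits virus replication, had 51.8 and 54.9 TPM in clone 3 against 4.87 to 17.7 TPM (2.62, adjusted p = 0.0147). LGALS3BP, a secreted glycoprotein that binds galectin-3, had 24.5 and 16.7 TPM in clone 3, 4.91 and 5.11 TPM in clone 2, 1.15 and 1.91 TPM in clone 1 and at most 2.85 TPM in the controls (3.42, SE 0.38, adjusted p = 0.00533). BST2, or tetherin, which holds budding viruses at the cell surface, had 2.74 and 4.71 TPM in clone 3, from 5 and 11 reads. It was listed at 0 in all 4 libraries of clones 1 and 2 and at no more than 0.261 TPM in the controls (2.15, SE 0.30, adjusted p = 0.0147).

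The calls for LGALS3BP and IFI6 were lost without clone 3 replicate 1, at adjusted p of 0.0514 and 0.105. USP18 and GBP2 were called too, and IFI44 and ISG20 completed the 12. The list held 8 calls without Parental replicate 2, without sgNTC clone 1 replicate 1 or without sgNTC clone 1 replicate 2, and 6 without clone 3 replicate 1. It held 19 without sgNTC clone 2 replicate 2 and 7 under upper quartile scaling.

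Promoters of the interferon stimulated genes are shown for the 6 called genes that had a single entry in RefSeq's table on GRCh38.p14. Called genes with several entries or none are not shown. The promoters are given because a short element in them is the usual landing place of the interferon-activated factors. Each line gives the 120 bases from 160 to 41 bases before the RefSeq start, 5′ to 3′ on the gene's strand, with capitals for matches to GAAANNGAAA or, read on the other strand, TTTCNNTTTC, where overlapping matches run into one another. ISG15 lies at chr1:1013337-1013456 (plus strand), IFIT1 at chr10:89392463-89392582 (plus), IFI6 at chr1:27672233-27672352 (minus), BST2 at chr19:17405671-17405790 (minus), ISG20 at chr15:88638856-88638975 (plus) and LGALS3BP at chr17:78979964-78980083 (minus).
ISG15: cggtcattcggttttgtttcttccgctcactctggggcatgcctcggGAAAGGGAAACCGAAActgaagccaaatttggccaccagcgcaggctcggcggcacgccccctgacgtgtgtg
IFIT1: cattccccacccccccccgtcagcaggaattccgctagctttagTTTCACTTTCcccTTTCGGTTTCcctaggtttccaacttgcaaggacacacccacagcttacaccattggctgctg
IFI6: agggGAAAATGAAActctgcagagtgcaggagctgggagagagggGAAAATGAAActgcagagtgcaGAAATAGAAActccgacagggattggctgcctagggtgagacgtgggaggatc
BST2: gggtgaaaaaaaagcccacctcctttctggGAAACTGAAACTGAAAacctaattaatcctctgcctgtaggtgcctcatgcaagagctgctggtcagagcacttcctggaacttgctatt
ISG20: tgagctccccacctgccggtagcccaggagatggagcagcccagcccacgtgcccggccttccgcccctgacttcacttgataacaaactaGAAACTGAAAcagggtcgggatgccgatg
LGALS3BP: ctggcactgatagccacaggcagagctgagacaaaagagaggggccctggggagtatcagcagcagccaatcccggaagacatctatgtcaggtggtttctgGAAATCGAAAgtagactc

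These promoters held 1 to 3 matches each. IFI6 had 3, at 156, 115 and 93 bases before the start, ISG15, IFIT1 and BST2 had 2 each, and ISG20 and LGALS3BP had 1. Within 250 bases before the start, 12 of 17 tested interferon stimulated genes with exactly 1 entry held a match (70.6%). The same held for 709 of 22114 promoters of all genes with 1 entry (3.21%). Of the 17740 genes tested, 6030 had 1 entry, and 151 of these held a match (2.504%). Genes with several entries or none are in none of these counts. A match is a run of letters and does not show that a factor bound there.

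Sensors and transcription factors act upstream of these genes. Of 19 tested RNA sensors, STATs and IRFs, 1 was called higher and none lower by limma, against 0.936% of all genes called higher. At an unadjusted p under 0.05 there were 5, all of them positive, against 8.78% of all genes in that direction. The median of the 19 was 0.24. The called gene was DDX58, which encodes the RNA sensor RIG-I, with 12.3 and 17.6 TPM in clone 3 against 2.76 to 5.81 TPM in the controls (1.49, adjusted p = 0.0198, and 0.0899 without clone 3 replicate 2). Clones 1 and 2 had 11.1 to 13.4 TPM, overlapping clone 3. STAT2 had 16.5 and 13.7 TPM in clone 3 against 6.45 to 9.98 TPM in the controls, with no overlap, but did not pass on TPM (0.86, adjusted p = 0.151). On recovered reads 4 of the 19 were called higher, DDX58, STAT2, the RNA helicase gene DHX58 and TMEM173, which encodes the adaptor STING, and none lower, against 3.13% of all genes called higher. Of 9 interferon genes 8 were listed at 0 in all 12 libraries, and IFNE reached at most 1.24 TPM in any.

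Genes of antigen presentation through MHC class I leaned higher as well. All 18 on the list were tested, 6 were called higher and none lower, against 0.936% of all genes called higher, 12 had an unadjusted p under 0.05 in the higher direction, against 8.78% of all genes, and the median was 0.95, against 0.46 and 0.40 in clones 1 and 2. Within batches it was 1.14 and 0.78. PSMB8, a catalytic subunit of the immunoproteasome, had 83.8 and 64.8 TPM in clone 3, 41.4 to 63.9 TPM in clones 1 and 2 and 15.9 to 20.5 TPM in the controls (1.95, SE 0.19, limma adjusted p = 0.00319). HLA-B, a class I heavy chain, had 136 and 134 TPM in clone 3 against 45.4 to 82.1 TPM (1.23, SE 0.13, adjusted p = 0.00405), and both lay above the 89.2 to 109 TPM of clones 1 and 2.

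HLA-C had 113 and 103 TPM in clone 3 against 25.7 to 51.0 TPM (1.56, adjusted p = 0.0186), and HLA-E 144 and 116 TPM against 52.0 to 65.3 TPM (1.12, adjusted p = 0.0131), with adjusted p of 0.134 and 0.0767 without clone 3 replicate 1. B2M, the light chain of class I molecules, had 1675 and 1440 TPM against 677 to 1067 TPM (0.87, adjusted p = 0.0454, and 0.0567 with the batch as a block). ERAP2, which trims peptides, rose by 1.17 (adjusted p = 0.0225, and 0.0983 without clone 3 replicate 1). The HLA genes are near-identical copies, and reads may be shared between them. The count of 6 fell to 1 under upper quartile scaling, to 2 without clone 3 replicate 1, and to 3 without either Parental library or without sgNTC clone 1 replicate 1.

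Against the other knockout clones few genes passed the test. The contrast of clone 3 with the mean of clones 1 and 2 called 4 genes higher (0.0225%) and 1 lower (0.00564%) of 17740, 0.0282% in all, and 723 had an unadjusted p under 0.05. All 5 (again 0.0282%) also passed against the RAC1-positive lines in the same direction, with both clone 3 libraries beyond all 10 others. The 2 contrasts share the clone 3 libraries, so passing both is a definition and not a second line of evidence.

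FGB (chromosome 4, 154562956 to 154571086), the beta chain of the clotting protein fibrinogen, had 96.9 and 116 TPM in clone 3, from 428 and 657 reads. Clone 1 had 3.03 and 5.84 TPM, clone 2 had 16.3 and 15.2 TPM, and the RAC1-positive libraries had 11.3, 21.6 and 45.3 TPM as lowest, median and highest. FGB was higher in clone 3 than in clones 1 and 2 by 3.51 (SE 0.25, limma adjusted p = 0.00474), with 3.55 in batch 1 and 3.48 in batch 2. Against the RAC1-positive lines it was higher by 2.15 (SE 0.23, adjusted p = 0.00488). The differences of clones 1 and 2 from the same lines were -2.20 and -0.53, so clone 3 was the only knockout clone above them. This was the 1 gene that passed both contrasts with the batch as a block, at an adjusted p of 0.0172 against clones 1 and 2. The call against clones 1 and 2 was lost with only those lines in the fit (adjusted p = 0.133) and the call against the RAC1-positive lines under upper quartile scaling (adjusted p = 0.0592), and both were lost with 1 mean per line as the unit (0.576 and 0.472).

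The genes of the other fibrinogen chains are its neighbours on chromosome 4, FGA at 154583126 to 154590766 and FGG at 154604134 to 154612967, and were near 0 outside clone 3. FGA had 8.37 and 4.24 TPM in clone 3, from 54 and 35 reads, 0 to 0.921 TPM in clones 1 and 2 and at most 0.0544 TPM in the controls (2.80, SE 0.33, adjusted p = 0.00632). FGG had 15.5 and 5.06 TPM in clone 3, from 91 and 38 reads, 0 to 1.01 TPM in clones 1 and 2 and at most 0.811 TPM in the controls (3.14, SE 0.45, adjusted p = 0.0168, and 0.0623 without clone 3 replicate 1). Against clones 1 and 2 neither passed, at adjusted p of 0.224 for FGA and 0.358 for FGG, although both clone 3 libraries lay above all 10 others.

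**Figure D3:**
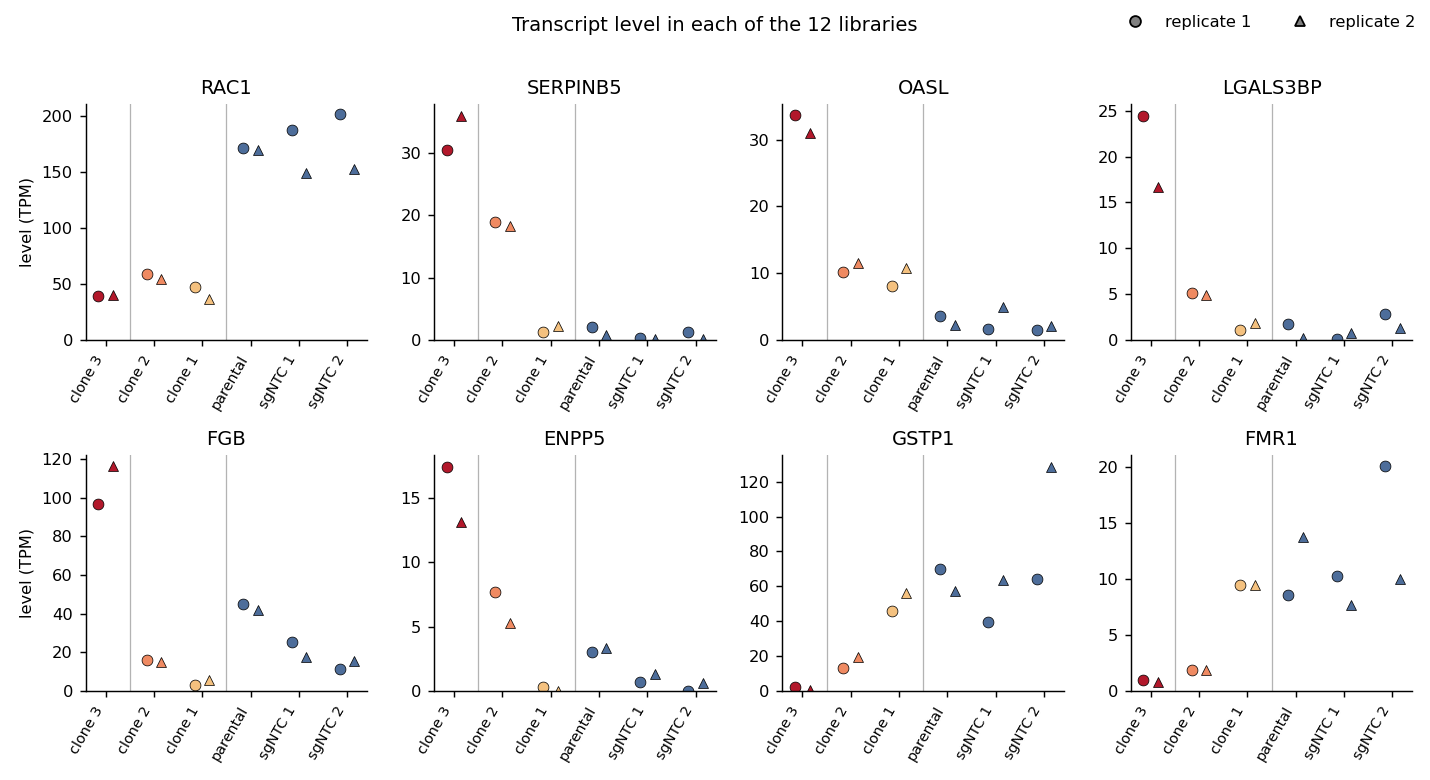
Level (y axis, TPM) of 8 genes in every library, with clone 3 at the left, the other knockout clones next and the RAC1-positive lines at the right; circles are replicate 1 and triangles replicate 2. FGB stands out in clone 3 alone, SERPINB5 and FMR1 set clones 3 and 2 apart from clone 1, and GSTP1 is lowest in clone 3 with clone 2 next.

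The other 3 genes higher than both sets were SNORA36C, RNU6-301P and a gene listed only under the name of a genomic clone. SNORA36C is a small nucleolar RNA and RNU6-301P a copy of the U6 spliceosomal RNA. They had 4.65 and 7.26 TPM, 5.73 and 4.48 TPM and 5.96 and 4.65 TPM in clone 3, in that order, and were listed at 0 in the other 10 libraries. These values rest on 1 and 2 reads for SNORA36C and on 1 and 1 for each of the others, because a single read on a very short gene is worth several TPM. A test on the recovered reads called none of the 3, with adjusted p of 0.245, 0.409 and 0.409 against the RAC1-positive lines.

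GSTP1 (chromosome 11, 67583595 to 67586656) was the 1 gene below both sets. It encodes the pi-class glutathione transferase, which couples glutathione to reactive compounds and is commonly silenced in prostate cancer. GSTP1 had 2.25 and 0.502 TPM in clone 3, from 7 and 2 reads. Clone 2 had 13.5 and 19.7 TPM, clone 1 had 45.8 and 56.1 TPM, and the RAC1-positive libraries had 39.7, 63.8 and 129 TPM as lowest, median and highest. Clone 3 lay below all 10 other libraries, clone 2 lay between, and clone 1 lay within the control range.

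The difference of clone 3 from the RAC1-positive lines in GSTP1 was -4.93 (SE 0.36, limma adjusted p = 0.00101), and those of clones 1 and 2 from the same lines were -0.38 and -1.96. Against clones 1 and 2 it was -3.76 (SE 0.38, adjusted p = 0.0335), but the adjusted p was 0.115 with the batch as a block and 0.255 under upper quartile scaling. It was 0.0553 and 0.0549 without Parental replicate 1 or 2, 0.0871 and 0.0552 without sgNTC clone 1 replicate 1 or 2, and 0.177 to 0.220 without any 1 library of clones 1 and 2. Of 14 glutathione transferase genes tested, limma called only GSTP1 lower and only MGST3, a microsomal member, higher, against 0.158% and 0.936% of all genes. MGST3 rose by 0.99 (adjusted p = 0.0433, and 0.0658 with the batch as a block). At an unadjusted p under 0.05 there were 7 higher and 2 lower, against 8.78% and 4.22% of all genes. On recovered reads 2 were called higher and 2 lower, against 3.13% and 0.745% of all genes.

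Several other low genes were low in clone 2 too and near control level in clone 1. FMR1, which encodes an RNA-binding protein of translation control, had 0.963 and 0.806 TPM in clone 3, 1.86 and 1.91 TPM in clone 2, 9.51 and 9.44 TPM in clone 1 and 7.67, 10.1 and 20.1 TPM as lowest, median and highest control. The difference of clone 3 was -2.69 (SE 0.28, adjusted p = 0.00400), against -2.07 in clone 2 and -0.21 in clone 1. CLDN11, a claudin of tight junctions, had 3.45 and 3.21 TPM in clone 3, 3.37 and 5.37 TPM in clone 2, 10.6 and 17.5 TPM in clone 1 and 7.15 to 34.3 TPM in the controls (-2.24, SE 0.22, adjusted p = 0.00319). Both genes kept their call whichever library was left out.

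CTNNAL1, a catenin-like protein, had 99.7 and 129 TPM in clone 3, 142 and 144 TPM in clone 2, 236 and 224 TPM in clone 1 and 235 to 383 TPM in the controls (-1.31, SE 0.19, adjusted p = 0.0170, and 0.137 without clone 3 replicate 1). MMP1, which cleaves fibrillar collagen, had 5.92 and 17.8 TPM in clone 3, 16.9 and 21.9 TPM in clone 2, 131 and 67.7 TPM in clone 1 and 19.3 to 147 TPM in the controls. Its difference of -2.49 had an adjusted p of 0.0426, and of 0.0674 with the batch as a block and 0.275 without clone 3 replicate 1. GPR27, an orphan receptor, fell by 1.92 (adjusted p = 0.0426, and 0.180 without clone 3 replicate 2). CADM1, a cell adhesion molecule, was lower in all 3 clones, and fell by 1.11 in clone 3 (adjusted p = 0.0248, and 0.120 without clone 3 replicate 1).

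With the recovered reads as the measure more genes set clone 3 apart from both sets. A limma voom test on those reads, added after the data were seen, called 555 genes higher (3.13%) and 132 lower (0.745%) of 17715 against the RAC1-positive lines, 3.88% in all, and 184 of the 194 calls on TPM were among them. Against clones 1 and 2 it called 24 higher (0.135%) and 6 lower (0.0339%), 0.169% in all. Passing both contrasts with the libraries apart were 24 higher genes (0.135%) and 2 lower ones (0.0113%), among which FGB and GSTP1 were the 2 shared with the calls on TPM.

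The lower gene besides GSTP1 was FMR1, at -2.23 from clones 1 and 2 (adjusted p = 0.0323). Of the 24 higher genes 8 were interferon stimulated genes of the list, LGALS3BP (2.84, adjusted p = 0.00190), OASL (1.68, adjusted p = 0.00622), IFIT1, IFIT2, IFIT3, IFI6, IFITM3 and BST2 (4.13, adjusted p = 0.0272). FGB, FGA and FGG were there together, at 3.71, 3.91 and 4.29 (adjusted p of 3.34e-08, 0.0122 and 0.0335). SERPINB5 lay 2.55 above clones 1 and 2 (adjusted p = 0.000233).

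Among the remaining genes of the recovered-read test were adhesion proteins and secreted proteins. MPZL2, an epithelial adhesion protein, had 265 and 300 TPM in clone 3, 133 to 157 TPM in clones 1 and 2 and 24.3 to 58.3 TPM in the controls, and lay above clones 1 and 2 by 1.00 in that test (adjusted p = 0.000915). CDH3, or P-cadherin, had 84.5 and 99.0 TPM in clone 3, 40.6 to 56.9 TPM in clones 1 and 2 and 8.98 to 24.6 TPM in the controls (0.94, adjusted p = 0.0297). ENPP5, a membrane glycoprotein of the ecto-phosphodiesterase family, had 17.4 and 13.2 TPM in clone 3, 7.65 and 5.27 TPM in clone 2, 0.321 and 0 TPM in clone 1 and at most 3.33 TPM in the controls (4.02, adjusted p = 0.000445). IFI16, a DNA sensor, had 4.75 and 6.34 TPM in clone 3 and 4.33 and 4.13 TPM in clone 2, but 0.172 and 0.161 TPM in clone 1 and at most 1.02 TPM in the controls (2.59, adjusted p = 0.0144).

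Lists of epithelial genes leaned upward. Of 27 tested junction genes 4 were called higher and none lower, against 0.936% of all genes called higher. At an unadjusted p under 0.05 there were 15, all higher, against 8.78% of all genes in that direction. The median of the junction genes was 0.52, against 0.40 and 0.20 in clones 1 and 2. CDH3 led them (2.43, SE 0.21, limma adjusted p = 0.00187). CDH1, or E-cadherin, had 12.3 and 17.6 TPM in clone 3 against 1.99 to 6.25 TPM in the controls (1.71, adjusted p = 0.0262, and 0.130 without clone 3 replicate 2). Clone 1 held 12.3 and 21.0 TPM of it, so clone 3 was not the highest.

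SPINT1 and SPINT2, inhibitors of the membrane protease matriptase, were the other called junction genes, at 1.79 and 0.72 (adjusted p of 0.0206 and 0.0421, and 0.0662 and 0.165 without clone 3 replicate 1). The junction count was 1 without clone 3 replicate 1, Parental replicate 2 or either sgNTC clone 1 library, 2 without Parental replicate 1 and 1 under upper quartile scaling. Keratins gave no limma call among 8 tested, and 5 of the 8 differences were positive. At an unadjusted p under 0.05 there were 5, all higher, against 8.78% of all genes in that direction. On recovered reads 4 were called higher and none lower, against 3.13% of all genes called higher. Both clone 3 libraries lay above all RAC1-positive libraries for 4 keratins and below all of them for 1. KRT8 had 307 and 308 TPM in clone 3 against 144 to 239 TPM in the controls (0.63, adjusted p = 0.0520). Of 16 tetraspanins tested 3 were called higher, against 0.936% of all genes, TSPAN7, TSPAN1 and CD63 (adjusted p of 0.0421 for CD63, and 0.0567 with the batch as a block), and all 16 differences were positive, with a median of 0.54.

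Histone genes were high in clone 3 and in clone 1. Of 28 tested 9 were called higher and none lower, against 0.936% and 0.158% of all genes, 14 and 3 had an unadjusted p under 0.05 in the higher and lower direction, against 8.78% and 4.22% of all genes, and the median was 0.70 in clone 3, 0.87 in clone 1 and 0.27 in clone 2. HIST2H2AA3, a histone H2A gene, had 493 and 338 TPM in clone 3, 518 and 579 TPM in clone 1, 257 and 222 TPM in clone 2 and 79.0 to 140 TPM in the controls (1.92, SE 0.16, adjusted p = 0.00164). HIST1H1C, a linker histone gene, had 1148 and 729 TPM in clone 3 against 270 to 422 TPM in the controls (1.48, SE 0.18, adjusted p = 0.00819). HIST1H4C, an H4 gene, lay the other way, with 1118 and 604 TPM against 1270 to 1930 TPM (-0.93, adjusted p = 0.127). On recovered reads 10 of the 28 were called higher and 3 lower, HIST1H4C and the linker histone genes HIST1H1D and HIST1H1E, against 3.13% and 0.745% of all genes. The limma count of 9 was 0 under upper quartile scaling and 6 with the batch as a block. It was 2 and 4 without clone 3 replicate 1 or 2, 3 without either Parental library, and 3 and 4 without sgNTC clone 1 replicate 1 or 2. Within batches the list median was 0.76 and 0.83. Some histone genes are near-identical, and reads may be shared between them.

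**Figure D4:**
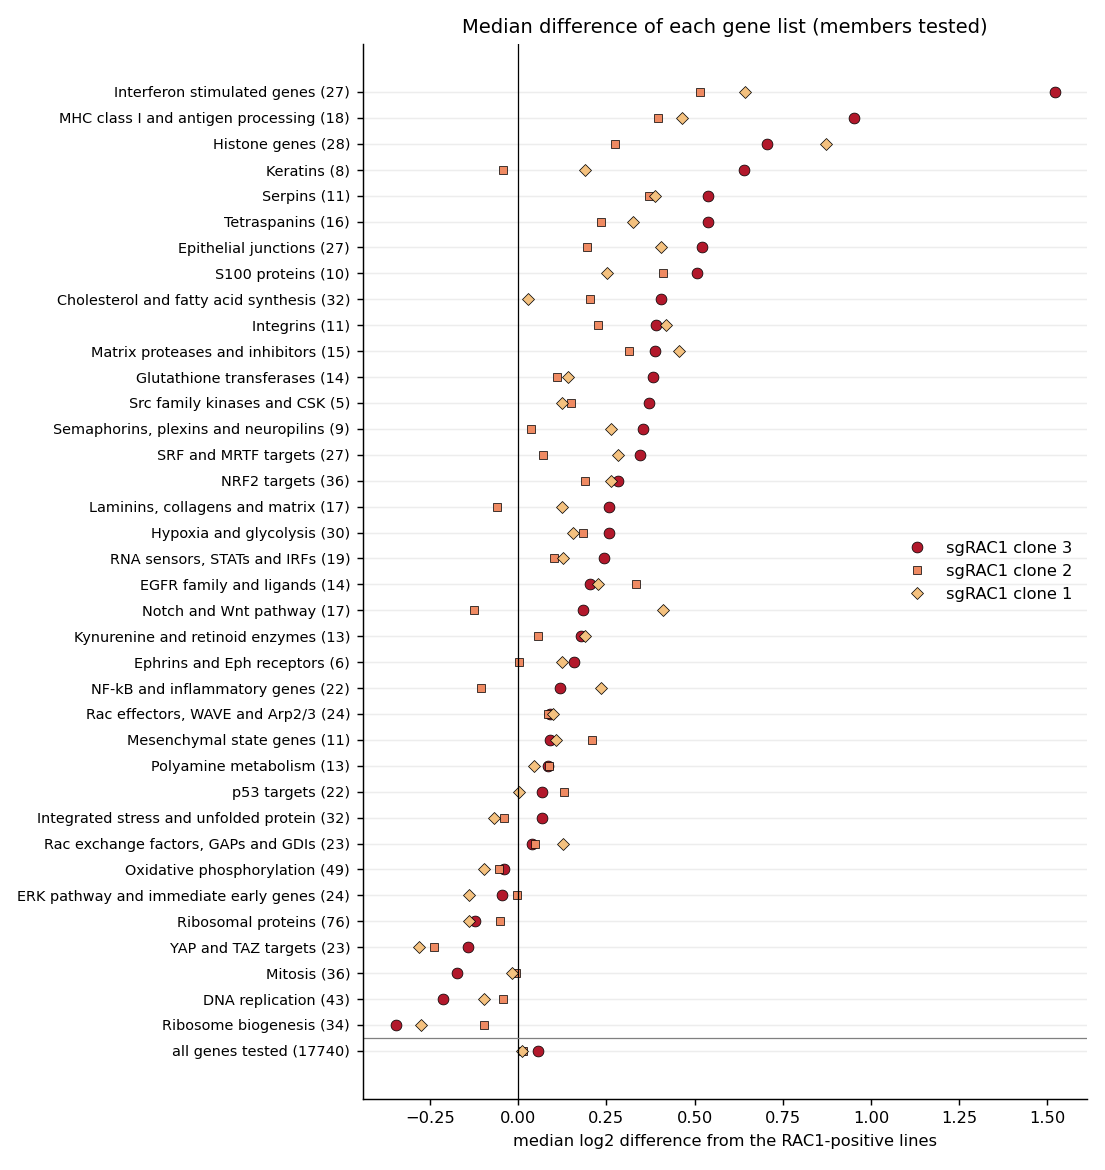
Median difference from the RAC1-positive lines (x axis, log2(TPM + 1)) of 37 gene lists in each knockout clone, with the number of members tested in brackets and all genes at the bottom. In clone 3 the interferon stimulated genes lie furthest right at 1.52, followed by MHC class I genes at 0.95 and histone genes at 0.70, and ribosome biogenesis genes lie furthest left at -0.35.

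Among metabolic lists, cholesterol and fatty acid synthesis had a median of 0.40 in clone 3, against 0.03 and 0.20 in clones 1 and 2, as the plot of list medians shows. None of its 32 tested genes was called by limma, 12 had an unadjusted p under 0.05, all of them higher, against 8.78% of all genes, and 29 were positive. On recovered reads 5 were called higher, against 3.13% of all genes. MSMO1, a sterol oxidase, had 220 and 216 TPM in clone 3 against 103 to 186 TPM in the controls (0.67, adjusted p = 0.102). FDPS, which makes farnesyl diphosphate, had 189 and 183 TPM against 112 to 154 TPM (0.55, adjusted p = 0.125). Within batches the list median was 0.36 and 0.49.

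Of 36 NRF2 targets 3 were called higher, GPX2, AKR1C1 and TALDO1, and none lower, against 0.936% of all genes called higher, with a median of 0.28. On recovered reads 10 were called higher and 2 lower, HMOX1, which degrades heme, and the thioredoxin gene TXN, against 3.13% and 0.745% of all genes. On TPM HMOX1 and TXN differed by -0.76 and -0.56 (adjusted p of 0.133 and 0.0585), AKR1C1 had an adjusted p of 0.0702 with the batch as a block and TALDO1 of 0.0734 without Parental replicate 2. Of 22 inflammatory genes 3 were called higher, against 0.936% of all genes, IL6, CCL5 and ICAM1, with a median of 0.12, and the call of the chemokine gene CCL5 (adjusted p = 0.0248) was lost without sgNTC clone 1 replicate 1 at 0.0713. The cytokine IL6 had 27.6 and 9.03 TPM in clone 3 against 2.40 to 4.29 TPM (2.04, adjusted p = 0.0493, 0.0747 with the batch as a block and 0.240 without clone 3 replicate 1). The adhesion receptor ICAM1 had 48.5 and 61.6 TPM against 18.7 to 27.0 TPM (1.25, adjusted p = 0.0280, and 0.122 without clone 3 replicate 2).

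Growth-related lists leaned downward, mainly in clone 3 replicate 1. All 34 ribosome biogenesis genes were negative, with a median of -0.35 against -0.28 and -0.10 in clones 1 and 2, but none was called by limma. At an unadjusted p under 0.05 there were 10, all lower, against 4.22% of all genes in that direction. On recovered reads 4 were called lower, against 0.745% of all genes. NOP16, a nucleolar protein, had 42.9 and 55.9 TPM in clone 3 against 72.0 to 94.0 TPM in the controls (-0.68, adjusted p = 0.0860). The list median was -0.65 in batch 1 and -0.09 in batch 2. Of 43 DNA replication genes 8 were positive and none was called. An unadjusted p under 0.05 was found for 8 in the lower direction and 1 in the higher, against 4.22% and 8.78% of all genes. On recovered reads 4 were called lower, against 0.745% of all genes. The list median of -0.21 was -0.43 in batch 1 and -0.08 in batch 2. RFC3, a clamp loader subunit, had 63.0 and 99.7 TPM in clone 3 against 147 to 269 TPM (-1.22, adjusted p = 0.0693).

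By position, the genes of 2 stretches were low together. Among 8110 genes with a position at 5 TPM or more, taken in 312 windows of 25 neighbours, the medians of clone 3 ran from -0.18 to 0.22 between the 5% and 95% marks. Of 9 windows below -0.25, 6 lay on chromosome 9 and 2 on chromosome 7. The limits of the stretches below were set after these windows were seen, so the values describe them and are not a test.

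**Figure D5:**
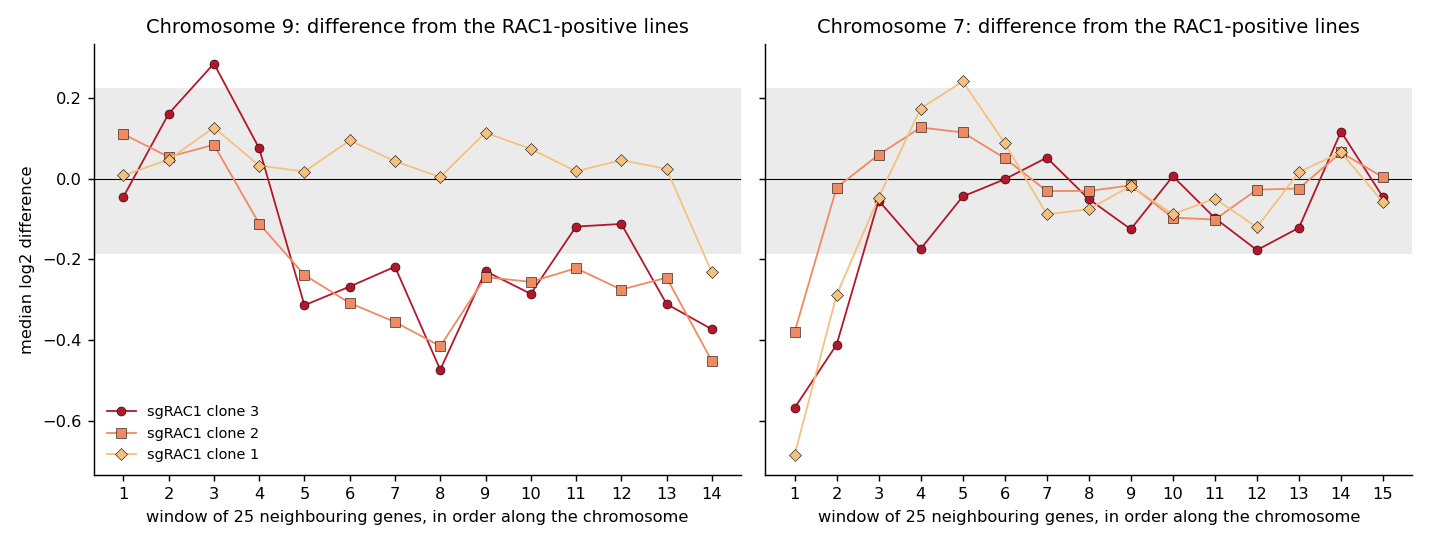
Median difference from the RAC1-positive lines (y axis, log2(TPM + 1)) of windows of 25 neighbouring genes along chromosome 9 and chromosome 7 (x axis, window number), 1 line for each knockout clone. The grey band spans -0.18 to 0.22, the 5% and 95% marks of clone 3 over all windows. On chromosome 9 clone 2 lies below the band in windows 5 to 14 and clone 3 in all of these but windows 11 and 12, while clone 1 stays near 0 up to window 13, and on chromosome 7 all 3 clones are low in window 1.

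On chromosome 9 past position 60000000, 208 of 262 genes were negative in clone 3 and the median was -0.28, with -0.34 in replicate 1 and -0.20 in replicate 2. Clone 2 had a median of -0.30 there and clone 1 of 0.01. Both libraries lay below all 6 RAC1-positive libraries for 78 genes in clone 3 (29.8%), 81 in clone 2 (30.9%) and 10 in clone 1 (3.82%), against 7.14%, 4.82% and 5.97% of all 8110 genes. The 99 genes before that position had a median of 0.13 in clone 3, with 6 below all controls (6.06%). Of the 262 genes 5 were called lower (1.91%) and 4 higher (1.53%), against 0.271% and 1.70% of the 8110 genes, so the share called higher was near that of all genes. CTNNAL1, described above, was one of those lower. CKS2, a regulator of cyclin-dependent kinases, had 2365 and 2066 TPM in clone 3 against 2566 to 3645 TPM, and the ribosomal protein gene RPL7A had 500.4 and 492 TPM against 614 to 738 TPM. Their differences were -0.57 and -0.46 (adjusted p of 0.0496 and 0.0460, and 0.0637 and 0.0713 with the batch as a block).

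On chromosome 7 up to position 23000000, which holds RAC1, 45 of 52 genes were negative in clone 3 and the median was -0.43. Clone 1 had -0.42 and clone 2 had -0.18. Both libraries lay below all RAC1-positive libraries for 21 of the 52 genes in clone 3 (40.4%), 22 in clone 1 (42.3%) and 13 in clone 2, and past that position for 32 of 345 genes in clone 3 (9.28%). NUDT1, which clears oxidised nucleotides, had 24.9 and 28.4 TPM in clone 3 against 39.4 to 61.1 TPM in the controls (-0.92, SE 0.16, limma adjusted p = 0.0409), RNF216, a ubiquitin ligase, had 13.4 and 11.95 TPM against 20.5 to 34.2 TPM (-0.89, SE 0.15, adjusted p = 0.0310), and FTSJ2, a mitochondrial RNA methyltransferase, had 54.2 and 63.7 TPM against 86.5 to 114 TPM (-0.76, SE 0.14, adjusted p = 0.0426). Without clone 3 replicate 1 NUDT1 and FTSJ2 had adjusted p of 0.193 and 0.195, and RNF216 had 0.0940 without Parental replicate 2. In clone 1 these 3 genes differed by -1.04, -0.76 and -0.83, and in clone 2 by -0.45, -0.78 and -0.49.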

How the data were processed

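RNA from 12 libraries was measured, 2 for each of 6 DU145 lines, with groups and replicate numbers taken from the labels. The authors deposited TPM values per gene. STAR 2.6.1d, bcl2fastq and DESeq2 are the tools listed, and GRCh38 the build, per the submitters' processing notes. The sources used here do not give the counting tool, strand setting or annotation, and overlapping and near-identical genes may share reads.

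TPM values were tested with limma 3.58.1 in R 4.3.3 on log2(TPM + 1), with 1 mean per line over all 12 libraries, for genes with a mean of at least 1 TPM in clone 3 or the RAC1-positive libraries. Clone 3 was set against the mean of the RAC1-positive line means and against that of clones 1 and 2, and p-values were adjusted over all genes tested by Benjamini-Hochberg at 0.05. All fold differences are on that log2 scale, which understates the change of low genes. Whole reads, recovered from the TPM steps for 99.9% of 32987 genes within 0.001 reads, were tested with limma voom, an alternative chosen after seeing the data.

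The replicate number marks a shared batch in the labels. The correlation of same-numbered libraries' deviations had a median of 0.026 over 15 pairs of lines, with 1 pair over 0.1. On simulated data with 200 genes changed of 17740, the test of clone 3 against the RAC1-positive lines recovered 14.9% of 2-fold and 81.8% of 4-fold changes. In simulated reads with 200 of 17715 genes changed, limma voom recovered 45.1% and 87.3% for the same contrast. Changed genes were drawn from those with a mean level of at least 5 TPM. No other difference between lines was simulated, so variation between clones is not covered.

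Genes were named by rule: the Rac genes and EGFR, up to 12 per direction with the largest difference among called genes with the libraries apart and at least 5 TPM, up to 10 per direction apart from both sets, and up to 4 per list or stretch (8 for a list with 10 or more called). ISG15, ISG20, HLA-E, B2M, STAT2, DHX58, TMEM173, HMOX1, TXN, HIST1H1D, HIST1H1E, IFIT5, HIST1H4C, USP18, GBP2, MPZL2 and IFI16 were chosen after their values were seen. Members and lists were chosen with earlier results of these data known. Gene positions come from GENCODE on GRCh38 by symbol, for 70.5% of genes tested, and promoters from RefSeq on GRCh38.p14.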

Additional observations from a re-analysis of the deposited data

Results flagged for a closer look

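Among the 6 RAC1-positive libraries, 11 of 117 named genes (9.40%) had 1 library whose gap to the nearest of the others, as a share of the range, passed Dixon's critical value, where chance gives about 1 in 20 groups. Of these libraries 4 were sgNTC clone 2 replicate 1, the shallow one. It was low for TSPAN1 (0 TPM, others 3.31 to 7.77 TPM, gap 0.673), RAC2 (2.02 TPM, others 3.32 to 4.33 TPM, gap 0.627) and MGST3 (15.2 TPM, others 21.6 to 26.5 TPM, gap 0.630), and high for VCL (61.4 TPM, others 44.7 to 50.0 TPM, gap 0.649). DDX58 was low in sgNTC clone 2 replicate 2 (2.76 TPM, others 4.63 to 5.81 TPM, gap 0.679). CKS2 was low in Parental replicate 1 (2566 TPM, others 3275 to 3645 TPM, gap 0.695), and FGG was high there (0.811 TPM, others 0 to 0.167 TPM, gap 0.740). In 4 genes a single library was above 0, with a gap of 1.0: BST2 in Parental replicate 1 (0.261 TPM), and DEFB1 (0.900 TPM), FGA (0.0544 TPM) and SNORD116-16 (2.34 TPM) in sgNTC clone 1 replicate 2.

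Clone 3 differed from clones 1 and 2 by limma in FGB (3.51, adjusted p = 0.00474) and GSTP1 (-3.76, adjusted p = 0.0335), and in RNU6-301P (2.603), a gene listed under a genomic clone's name (2.65) and SNORA36C (2.77), each with an adjusted p of 0.0335 and resting on 1 or 2 reads a library.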

How the results depend on the processing

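Counts are given as higher and lower against the RAC1-positive lines (166 and 28), against clones 1 and 2 (4 and 1) and apart from both (4 and 1). With the batch as a replicate block they were 122 and 19, 1 and 0, and 1 and 0. With line means as the unit all were 0, with 1888 and 1572 genes at an unadjusted p under 0.05 in the 2 contrasts, and RAC1 kept its difference of -2.07 with an adjusted p of 0.127. With only the lines of the contrast in the fit they were 45 and 4, 0 and 0, and 0 and 0. Upper quartile scaling gave 46 and 5, 4 and 0, and 3 and 0, and moved the median of all genes to 0.15. A pseudocount of 0.1 gave 114 and 22, 1 and 0, and 1 and 0, and one of 5 gave 195 and 27, 8 and 2, and 8 and 1. No filter gave 156 and 17, 24 and 14, and 24 and 1, and a filter of 5 TPM gave 158 and 31, 1 and 1, and 1 and 1. Median-of-ratios scaling gave 161 and 36 against the RAC1-positive lines. Batch 1 alone gave 626 and 4, 708 and 0, and 361 and 0, and batch 2 alone 365 and 4, 636 and 1, and 227 and 0, each with 1 library of clone 3, assumed to vary like the pooled lines. Leaving out 1 library gave 66 to 564 and 7 to 138, 1 to 243 and 0 to 5, and 1 to 238 and 0 to 3. Leaving out a line gave 69 to 183 and 9 to 39, 1 and 0 to 1, and 1 and 0 to 1. Limma voom on recovered reads gave 555 and 132, 24 and 6, and 24 and 2, with a replicate block 653 and 233, 41 and 7, and 39 and 2, and without sgNTC clone 2 replicate 1 546 and 126, 24 and 6, and 24 and 2. The cause of these shifts was not tested.

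Small uncalled differences changed sign. Under upper quartile scaling RHOG was 0.056, CDC42 0.098 and VAV2 0.020. In batch 1 VAV2 was 0.037, and in batch 2 CDC42 was 0.23 and EGFR 0.056. Without 1 library or line RHOG ran from -0.19 to 0.080, CDC42 from -0.12 to 0.046 and VAV2 from -0.20 to 0.062, and by voom without sgNTC clone 2 replicate 1 CDC42 was 0.020. Depth limits genes of few reads: at 5.11 TPM for 1 read on 1 kb, sgNTC clone 2 replicate 1 cannot show a low level.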
